A study of Mus musculus with 60 samples.

Results

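The libraries labelled dPOLE4 MCM2-2A at 60 h of retinoic acid (RA) were compared with the libraries labelled Ctrl at the same time (T60). Both groups were taken by their sample labels and hold 3 libraries each, of 48 in the 24 h and RA experiment and 60 in the whole series. All cells were E14JU mouse embryonic stem cells (mESCs) in which POLE4 carries a degron tag (POLE4-dTAG), so the tagged allele is shared by both groups. Ctrl cells were given DMSO. dPOLE4 MCM2-2A cells also carry the MCM2-2A mutation and were given dTAG, a small molecule that sends tagged POLE4 to degradation. Either treatment was given for 24 h in medium with serum and LIF, before the cells were moved to medium with RA and without LIF. The methods do not say whether it went on during RA. Each line is 1 clone, so the mutation and any other difference between the clones cannot be told apart. The labels call the replicates separate samples and the methods call them biological replicates.

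During DNA replication, parental histones are passed from the old DNA to both daughter strands, and with them the marks they carry. POLE4, a subunit of the leading strand polymerase, takes part in this transfer on the leading strand, and MCM2, a subunit of the replicative helicase with a histone-binding tail, on the lagging strand. The 2A mutation impairs histone binding by MCM2, so that both routes are impaired in the double mutant, though not abolished, since other routes are known. RA binds nuclear receptors that switch on Hox genes, RA-degrading enzymes and neural regulators, while the pluripotency network of ES cells is shut down.

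RNA depleted of rRNA was sequenced, and reads were counted per gene and per repeat subfamily. Total counts ran from 10461077 to 16674461 for Ctrl and from 17715902 to 20396507 for dPOLE4 MCM2-2A. Of 56633 features, 18026 passed the filter on low counts. The test was the quasi-likelihood F test of edgeR, with Benjamini-Hochberg adjusted p-values over all of them. A feature was called differentially expressed (DE) with an adjusted p below 0.01 and a change of more than 1.5-fold (0.58 on the log2 scale). Levels are given as CPM (counts scaled to a common library size) on a scale common to the 48 libraries, which is not corrected for gene length. Replicate 3 of dPOLE4 MCM2-2A stood most apart, with 1.84% of its counts on the mitochondrial genome against 0.788% and 0.675% in the other replicates.

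Mcm2, which is not in itself removed by the 2A mutation, had lower RNA in the double mutant. It was at 298, 257 and 290.4 CPM in the Ctrl libraries and at 175, 179 and 151 CPM in dPOLE4 MCM2-2A. The log2 fold change was -0.73 ± 0.09 (SE, adjusted p = 1.74e-05), and it was -0.76 at T0, before RA. Pole4 RNA was at 24.0, 21.9 and 23.9 CPM in Ctrl and at 19.8, 17.8 and 20.9 CPM in dPOLE4 MCM2-2A (log2 fold change -0.24 ± 0.11, adjusted p = 0.0801), and it was called lower at T0 (-0.73). The dTAG system acts on the protein, so Pole4 RNA checks neither label. Nor do Mcm2 counts show the mutation itself.

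At T60, 2099 features were higher in the double mutant (11.6% of those tested) and 1830 were lower (10.2%). These shares are the background for the list counts at T60 below. Genes of chromosomes 11, 14 and 15 were kept apart, since these chromosomes differ as a whole between the lines. Outside them, 1545 of 14545 genes were higher (10.6%) and 1206 were lower (8.29%), and the median log2 fold change was 0.002. Of these, 310 were over 4-fold higher and 143 over 4-fold lower. The libraries of the 2 groups did not overlap in 7277 of the 14545 genes (50%). When tested against a change of 1.5-fold, and not against 0 with a separate fold limit, 1205 genes outside these chromosomes passed in place of 2751.

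On chromosomes 11, 14 and 15, 483 of 2634 genes were higher (18.3%) and 615 were lower (23.3%). Median log2 fold changes were -0.52 on chromosome 11, 0.31 on chromosome 14 and 0.45 on chromosome 15. At T0 they were -0.46, 0.29 and 0.55, so that the shift stood before RA was given. Chromosome Y had a median of -3.56, with 7 of 11 tested genes lower, and -3.29 at T0. Among the remaining nuclear chromosomes the medians ran from -0.16 on X to 0.16 on chromosome 1, and the mitochondrial genome had a median of 0.31. Gene dosage, loss of Y in part of the cells and regulation cannot be told apart from RNA counts, and Hoxb, Meis1 and Rara on chromosome 11 and Rarg and Hoxc on chromosome 15 are read with this limit.

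**Figure D1:**
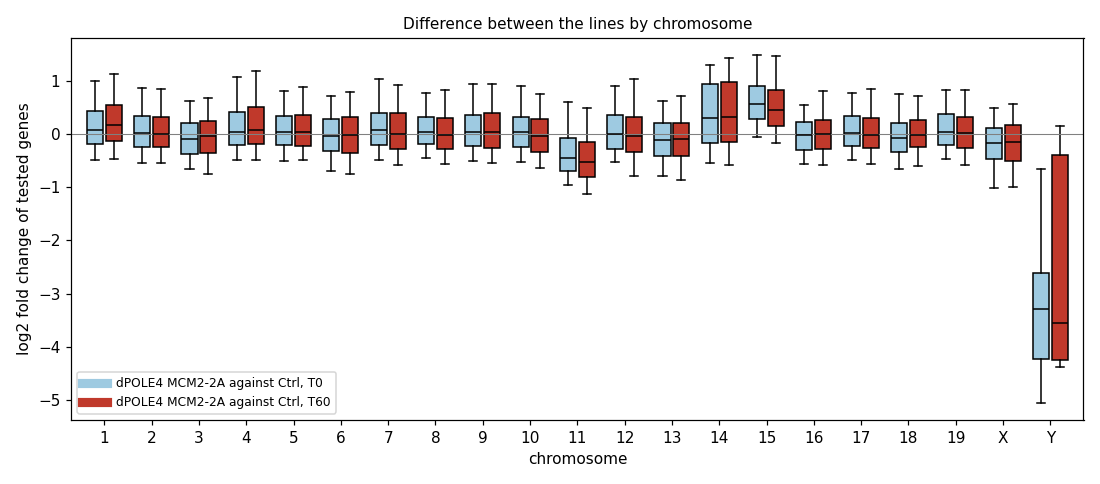
Log2 fold change of the tested genes of each chromosome, dPOLE4 MCM2-2A against Ctrl, at T0 (blue) and T60 (red), with boxes from the lower to the upper quartile, a line at the median and whiskers from the 10th to the 90th percentile. Chromosome 11 lies below 0, chromosomes 14 and 15 lie above it and Y lies far below, at both times.

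Among genes outside these chromosomes with at least 5 CPM in a group and no overlap, Alppl2 rose most. This alkaline phosphatase of early embryos was at 1.40, 1.10 and 1.06 CPM in Ctrl and at 25.6, 26.4 and 23.0 CPM in dPOLE4 MCM2-2A (log2 fold change 4.38 ± 0.17, adjusted p = 9.37e-10). Every double mutant library was thus far above every Ctrl library. Nphs1, which codes for nephrin, the slit diaphragm protein of the kidney, was at 0.304, 0.365 and 0.192 CPM in Ctrl and at 6.92, 6.06 and 4.31 CPM in the double mutant (4.29 ± 0.34, adjusted p = 4.38e-07). Fbp2, a gluconeogenic enzyme of muscle, was at 2.80, 3.11 and 2.88 CPM against 30.7, 29.6 and 30.9 CPM (3.40 ± 0.13, adjusted p = 9.37e-10). Sycp3, a component of the meiotic synaptonemal complex, rose by 3.20, and Per2, a circadian repressor, by 2.98. The others of the 12 were Adgrd1 (4.32), Trim43a (3.70), Scn4b (3.27), Ckmt1 (3.18), Dscaml1 (3.17), Mymx (3.13) and Kcnc1 (3.01). In Ctrl, Nphs1 and Mymx, a fusion peptide of muscle cells, had T0 means of 49.7 and 22.7 CPM, far above their T60 levels.

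Afp led the genes that fell. Afp, the fetal serum protein of liver and yolk sac, was at 9.97, 11.8 and 13.1 CPM in Ctrl and at 0.364, 0.372 and 0.458 CPM in dPOLE4 MCM2-2A (log2 fold change -4.81 ± 0.24, adjusted p = 7.68e-09). Shisa3, an antagonist of Wnt and FGF receptors, was at 50.1, 48.5 and 47.6 CPM against 2.60, 1.54 and 1.24 CPM (-4.76 ± 0.18, adjusted p = 8.31e-10). In neither gene did the groups come close. Igfbp5, a secreted binder of insulin-like growth factors, was at 159, 177 and 183 CPM against 10.2, 10.2 and 13.1 CPM (-3.93 ± 0.11). The growth factor Ptn fell by 4.02, the matrix link protein Hapln1 by 4.57, the collagens Col5a2 and Col1a2 by 3.36 and 3.31, Thsd7a by 3.21 and the eye and neural regulator Pax6 by 3.19. Uba1y, Uty and Ddx3y, the other 3 of the 12, are on chromosome Y and were also lower at T0, by 3.16, 4.34 and 5.04. Bulk RNA does not separate fewer cells of a type from less RNA per cell, which holds for all results here.

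**Figure D2:**
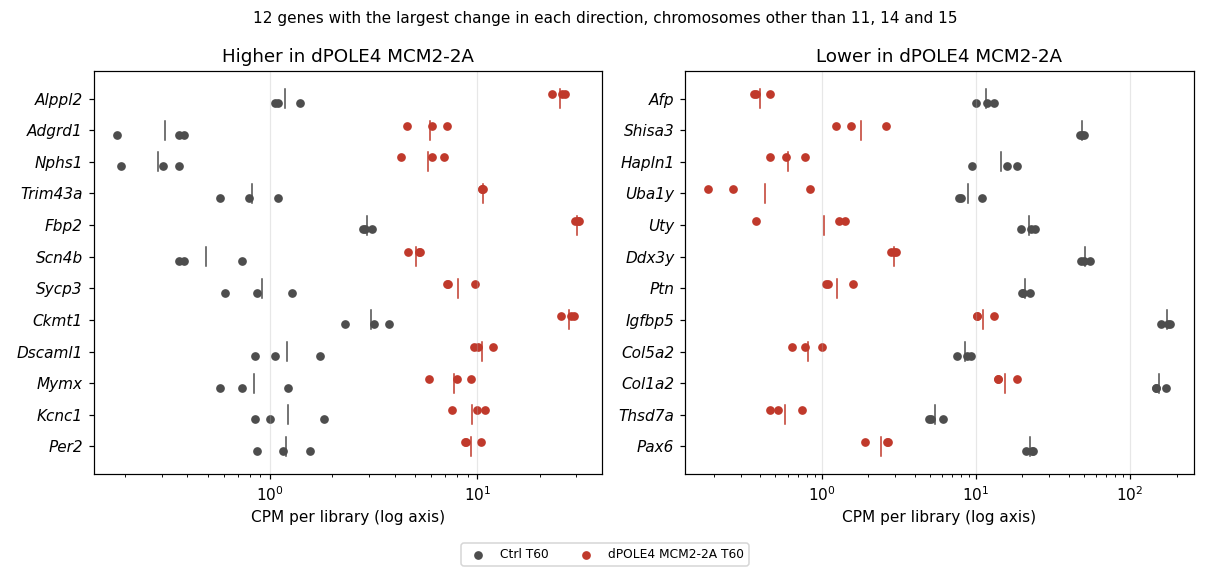
CPM on a log axis in each Ctrl T60 library (grey) and each dPOLE4 MCM2-2A T60 library (red) for the 12 genes with the largest rise and the 12 with the largest fall outside chromosomes 11, 14 and 15, with a vertical line at each group mean. Grey and red points are separate in each of the 24 genes, since only genes without overlap were chosen.

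Genes of naive pluripotency and self-renewal were higher at T60. Of 18 tested, 14 were higher and 0 lower (background 11.6% and 10.2%), with a median log2 fold change of 1.67 against 0.016 over all features. Nanog, a core factor of the pluripotent state, was at 20.8, 20.6 and 17.6 CPM in Ctrl and at 119, 105 and 99.4 CPM in dPOLE4 MCM2-2A (2.46 ± 0.10, adjusted p = 2.46e-09). Pou5f1 (Oct4) was at 37.9, 25.0 and 28.1 CPM against 176, 159.8 and 127 CPM (2.35 ± 0.15, adjusted p = 4e-08). For both genes the lowest double mutant library was over 3 times the highest Ctrl library. Esrrb, an orphan nuclear receptor of naive cells, was at 14.4, 15.4 and 16.0 CPM against 89.5, 76.9 and 60.7 CPM (2.33 ± 0.14). Tfcp2l1 was at 45.4, 45.2 and 50.1 CPM against 198, 177 and 144 CPM (1.90 ± 0.11). Tcl1 (2.77), Nr0b1 (2.61), Pramel7 (2.57), Nr5a2 (1.89), Prdm14 (1.68), Pramel6 (1.65), Klf4 (1.29), Klf2 (1.25), Zfp42 (0.96) and Tbx3 (0.64) were also called. Sox2 differed from this pattern, at 28.6, 31.5 and 27.7 CPM in Ctrl and 33.6, 28.1 and 20.99 CPM in the double mutant (-0.07 ± 0.15, adjusted p = 0.718). Its groups overlapped, as did those of Pecam1 (0.21) and Dppa3 (0.40).

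Before RA this list held no such excess, with 1 member higher, 3 lower and a median of -0.17 at T0, where 12.8% of all features were higher and 9.22% lower. Nanog was at a mean of 460.2 CPM in Ctrl and 442 CPM in dPOLE4 MCM2-2A at T0, and at 162 and 234 CPM at 24 h of RA. Between T0 and T60 its mean thus fell to 19.7 CPM in Ctrl and to 108 CPM in the double mutant. Pou5f1 means went from 847 to 30.3 CPM in Ctrl and from 930.2 to 154 CPM in the double mutant. In both lines the genes therefore fell with RA, and the remainder at T60 was larger in the double mutant. The change of the difference from T0 to T60 was 2.50 ± 0.13 for Nanog (adjusted p = 2.18e-09), 2.199 ± 0.19 for Pou5f1 (adjusted p = 2.64e-07) and 2.54 ± 0.16 for Esrrb (adjusted p = 6.33e-09). Sox2 means went from 315 to 29.3 CPM in Ctrl and from 285 to 27.5 CPM in the double mutant. In between, Sox2 was lower in the double mutant without overlap, at 161, 174 and 154 CPM against 232, 267 and 228 CPM at 12 h and at 99.6, 101 and 87.1 CPM against 137, 143 and 139.6 CPM at 24 h.

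**Figure D3:**
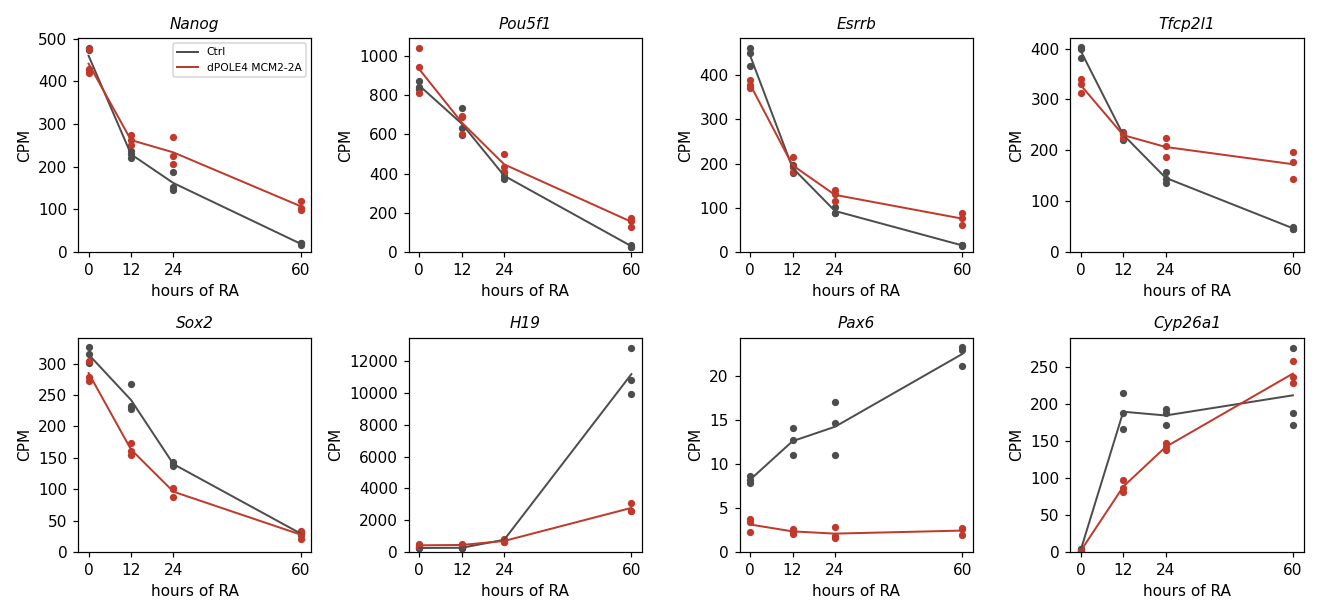
CPM at 0, 12, 24 and 60 h of RA in Ctrl (grey) and dPOLE4 MCM2-2A (red), each point a library and each line through the means, with linear axes from 0. Nanog, Pou5f1, Esrrb and Tfcp2l1 stay above Ctrl at 60 h, Sox2 does not, H19 and Pax6 rise in Ctrl and much less or not in the double mutant, and Cyp26a1 reaches the level of Ctrl by 60 h.

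The Nanog promoter is printed because it holds the joined octamer and Sox letters at which Pou5f1 and Sox2 are known to bind, and Pou5f1 stayed up here while Sox2 did not. The window from RefSeq (GRCm38.p6, chr6:122707239-122707538, plus strand) runs from 250 bases before the start of transcription to 50 after it. Capitals mark TTTGCAT and ACAATG, searched on both strands with 1 base between them, at -75 to -62.
Nanog: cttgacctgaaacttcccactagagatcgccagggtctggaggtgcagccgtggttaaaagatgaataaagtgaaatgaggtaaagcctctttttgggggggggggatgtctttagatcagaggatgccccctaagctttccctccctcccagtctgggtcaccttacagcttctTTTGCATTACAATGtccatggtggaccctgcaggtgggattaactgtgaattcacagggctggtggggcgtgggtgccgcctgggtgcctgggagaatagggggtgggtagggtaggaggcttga
Of 27025 genes with a promoter window, 1 held these letters (0.0037%), which is Nanog itself, 1 of the 13 naive genes with a window. The letters searched are those of the Nanog site with 1 base left free. This count was therefore fixed by the choice of letters and is no background rate. The printed site is a match of letters and no measure of binding.

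Of 17 general pluripotency genes, 10 were higher and 1 lower (background 11.6% and 10.2%), with a median of 0.78. Tdgf1, a co-receptor for Nodal, was at 4.99, 3.56 and 5.08 CPM in Ctrl and at 36.7, 29.7 and 27.0 CPM in dPOLE4 MCM2-2A (2.78 ± 0.16, adjusted p = 2.67e-08). Fgf4 rose by 2.21, Dppa2 by 1.33, Dppa5a by 1.25 and Zfp296 by 1.14. Lin28b, an RNA-binding repressor of let-7 maturation, was the member that fell, from 56.9, 71.1 and 57.3 CPM to 22.1, 16.9 and 22.4 CPM (-1.58 ± 0.13). Its paralogue Lin28a, at -0.33, was not called. Formative genes, which come on between the naive and the primed state, were mixed, with 3 of 12 higher, 2 lower and a median of 0.22. Dnmt3b rose by 0.66, while Sox4 fell by 0.95 and Foxd2 by 2.41. Krt18, on chromosome 15, was called at 0.61, but at 0.53 without Ctrl replicate 2 and 0.50 without dPOLE4 MCM2-2A replicate 2 it was not.

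Cyp26a1, the RA-degrading enzyme that RA itself induces, was at 276, 188 and 171 CPM in Ctrl and at 258, 237 and 229 CPM in dPOLE4 MCM2-2A (log2 fold change 0.20 ± 0.14, adjusted p = 0.243). Its groups overlapped, and both were far above the Cyp26a1 means of 3.20 and 1.64 CPM at T0. Cyp26b1 was at 261, 232 and 225 CPM against 234, 181 and 208 CPM (-0.19 ± 0.10, adjusted p = 0.133). At 24 h, however, the mean of Cyp26a1 was 185 CPM in Ctrl and 142 CPM in the double mutant, without overlap between the groups. Of 8 enzymes of RA metabolism, 1 was higher and 3 lower (background 11.6% and 10.2%). Aldh1a3, which makes RA, rose by 2.47 from below 0.3 CPM in every Ctrl library, and with at least 10 counts asked of every library no enzyme was higher. Dhrs3, an RA-induced reductase that returns retinal to retinol, fell from 155, 129 and 128 CPM to 62.7, 60.7 and 66.5 CPM (-1.10 ± 0.09, adjusted p = 4.33e-07), and Aldh1a1 fell by 2.14. Aldh1a2 fell by 0.91, but was not called without Ctrl replicate 3 (-0.70) or without dPOLE4 MCM2-2A replicate 2 (-0.82).

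The start of the Cyp26a1 gene is printed because it is the classical RA-responsive promoter of this list. In the RefSeq window (GRCm38.p6, chr19:37697558-37697857, plus strand), capitals mark 2 retinoid motifs 5 bases apart, with the bases between them, at -32 to -16. The motifs searched, on both strands, were AGGTCA or AGTTCA or GGGTCA or GGTTCA, each followed by another of them in the same direction.
Cyp26a1: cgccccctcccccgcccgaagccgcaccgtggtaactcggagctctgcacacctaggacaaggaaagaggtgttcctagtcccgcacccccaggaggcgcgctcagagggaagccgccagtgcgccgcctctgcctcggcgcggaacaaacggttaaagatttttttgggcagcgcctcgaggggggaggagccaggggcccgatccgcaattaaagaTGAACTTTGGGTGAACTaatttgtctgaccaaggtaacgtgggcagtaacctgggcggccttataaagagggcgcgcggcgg
Such a pair was found in the windows of 31 of 27025 genes (0.115%) and of 1 of 6 RA-metabolizing enzymes. A match is a description and not a measured site.

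Among RA receptors, 1 of 6 was higher and 2 were lower, and these 3 lie on chromosomes 11, 14 and 15. Rarg, the receptor most used by ES cells, was at 37.5, 31.9 and 30.2 CPM against 112, 119.7 and 103 CPM (1.76 ± 0.10, adjusted p = 1.96e-08), with a difference of 1.05 at T0. Rarb, on chromosome 14, fell by 0.73 although the chromosome's median was above 0. Rara fell by 0.59 on chromosome 11, near the median of that chromosome, and was not called without Ctrl replicate 1 (-0.50) or without dPOLE4 MCM2-2A replicate 3 (-0.52). Of 6 carriers of retinoids 3 were lower. Crabp2 fell from 143, 108 and 115 CPM to 63.2, 51.7 and 59.4 CPM (-1.06 ± 0.11, adjusted p = 3.33e-06), Crabp1 by 1.09 and Rbp4 by 1.57. Crabp2, which carries RA to its receptors in the nucleus, was higher in the double mutant at T0 (1.31).

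In Hoxa on chromosome 6, 3 of 11 were higher and 3 lower, and those that rose were Hoxa9, Hoxa10 and Hoxa11, the posterior members. Hoxa9 was at 3.35, 2.19 and 2.01 CPM in Ctrl and at 10.6, 7.97 and 8.89 CPM in dPOLE4 MCM2-2A (1.83 ± 0.21, adjusted p = 9.63e-06), and Hoxa10 at 0.730, 0.639 and 0.192 CPM against 3.70, 5.00 and 4.81 CPM (3.03 ± 0.32). Hoxa2 fell by 1.05 and Hoxa6 by 1.22. Hoxa4 fell by 0.73 but was not called without Ctrl replicate 1, Ctrl replicate 2 or dPOLE4 MCM2-2A replicate 2 (-0.74, -0.59 and -0.59). In Hoxd on chromosome 2, 4 of 7 were higher and 0 lower, with Hoxd11 at 3.36, Hoxd13 at 1.604, Hoxd9 at 1.12 and Hoxd4 at 0.89. Hoxd levels were below 6 CPM in every library. With at least 10 counts asked of every library, 1 Hoxa and 2 Hoxd genes were higher, and without Ctrl replicate 3 only 2 stayed called, Hoxd9 and Hoxd4 falling out at 0.89 and 0.65. Hoxd4 was also not called without Ctrl replicate 2 (0.93), dPOLE4 MCM2-2A replicate 1 (0.89) or replicate 2 (0.88).

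All 10 tested Hoxb genes had negative values, and 8 were called lower, with a median of -1.36. On their chromosome 11 as a whole, 39.7% of tested genes were called lower and the median is -0.52. Hoxb4 went from 63.4, 60.8 and 59.6 CPM to 25.1, 21.8 and 19.7 CPM (-1.45 ± 0.10, adjusted p = 1.42e-07) and Hoxb8 from 59.4, 48.0 and 46.2 CPM to 16.9, 12.01 and 12.3 CPM (-1.89 ± 0.14). On chromosome 15, where the median is 0.45, Hoxc4, Hoxc5, Hoxc6 and Hoxc8 fell by 1.69, 1.79, 1.67 and 2.15, and Hoxc10 and Hoxc13 rose by 1.59 and 2.51. The first 4 thus moved against the shift of the chromosome and the last 2 with it. Cdx1, a regulator of posterior Hox genes, rose from 16.4, 10.8 and 9.78 CPM to 91.9, 94.5 and 72.6 CPM (2.80 ± 0.16, adjusted p = 2.59e-08). Cdx2 rose by 1.76.

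**Figure D4:**
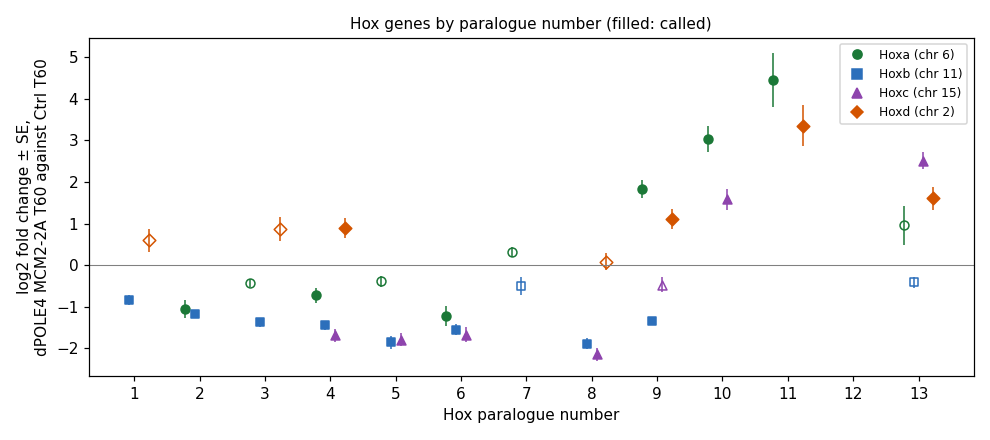
Log2 fold change with its SE for tested Hox genes at T60, by paralogue number, with the cluster given by colour and shape and called genes filled. Called genes with numbers 1 to 8 lie below 0 except Hoxd4, and those with numbers 9 to 13 lie above 0 except Hoxb9.

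TALE homeodomain proteins are the DNA-binding partners of Hox proteins, and RA is known to induce Meis genes. Of 11 tested, 5 were lower and 0 higher (background 10.2% and 11.6%), with a median of -0.38. Meis2 was at 203, 206 and 199 CPM in Ctrl and at 44.9, 40.03 and 50.4 CPM in dPOLE4 MCM2-2A (-2.15 ± 0.09, adjusted p = 2.58e-09). Pknox2 fell by 1.71 and Pbx3 by 1.10. Meis1, on chromosome 11, fell by 2.19. Mean Meis2 was 7.33 and 2.46 CPM at T0, so it rose with RA in both lines, to a lower level in the double mutant.

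Neural genes were more often lower than higher, with 12 of 31 lower and 4 higher (background 10.2% and 11.6%) and a median of -0.29. At T0, 8 of 24 members tested were already lower and 5 higher (background 9.22% and 12.8%), with a median of -0.21. Among those lower before RA were Pax6 (-1.47), Zfp521 (-1.34) and Sox11 (-1.87). The change of the difference from T0 to T60 was called downward for 5 of the list and upward for 2. Pax6 was at 23.3, 23.0 and 21.2 CPM in Ctrl and at 2.65, 1.91 and 2.704 CPM in dPOLE4 MCM2-2A (-3.19 ± 0.15, adjusted p = 6.17e-09). Irx3, a neural tube patterning factor, was at 51.1, 41.7 and 60.04 CPM against 10.8, 9.99 and 8.30 CPM (-2.38 ± 0.14, adjusted p = 2.87e-08). Zfp521, which drives the neural fate of ES cells, fell by 2.64 and Sox1 by 2.32. Sox3 had overlapping groups, at 13.4, 7.21 and 8.54 CPM against 12.8, 9.46 and 7.20 CPM (0.00 ± 0.19). Neurod1 (2.65), Mnx1 (1.63), Nkx6-1 (1.56) and Onecut2 (1.43), which are also genes of pancreatic development, rose, and 2 of the list did so where every library had at least 10 counts. Markers of neural progenitors (Sox1, Sox3, Pax6, Nes and Hes5) summed to 295 to 327 CPM in Ctrl and 159 to 174 CPM in the double mutant. Their T0 means were 126 and 56.7 CPM. Summed over Tubb3, Dcx, Elavl3 and Stmn2, markers of neurons, Ctrl libraries had 30.8 to 42.6 CPM and double mutant libraries 33.6 to 42.3 CPM. The same sum had means of 297 and 273 CPM at T0, in cells that had not been given RA. Of 13 neural crest genes, 4 were lower and 3 higher, with a median of -0.11. Tfap2b fell by 3.99, Twist1 by 2.14, Sox9 by 2.09 and Tfap2a by 1.47, while Pax7 rose from 0.365, 0.0913 and 0 CPM to 1.72, 2.66 and 2.25 CPM (3.56 ± 0.51) and Msx2 rose by 0.72. Foxd3 rose by 1.78 but was not called without Ctrl replicate 2 (1.597) or 3 (1.53) or without dPOLE4 MCM2-2A replicate 1 (1.36) or 2 (1.85).

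Of 25 endoderm genes, 5 were higher and 6 lower (background 11.6% and 10.2%). Among regulators of early endoderm, Sox17 rose from 36.1, 19.4 and 28.7 CPM to 61.7, 58.5 and 52.4 CPM (1.04 ± 0.16, adjusted p = 0.000114) and Gata4, on chromosome 14, by 1.296. Of serum protein genes, Ttr fell from 24.0, 18.5 and 23.9 CPM to 2.60, 3.03 and 2.38 CPM (-3.04 ± 0.16, adjusted p = 1.18e-08), Apoa1 by 3.24 and Afp as above. Laminin Lama1 was at 1010, 806 and 976 CPM against 928.5, 844 and 822 CPM (-0.09 ± 0.09), and Gata6 at -0.04 was also not called. Marker sums for Gata4, Gata6, Sox17, Dab2 and Lama1 ran from 1074 to 1340 CPM for Ctrl and from 1226 to 1341 CPM for the double mutant. Markers of pluripotent cells (Pou5f1, Nanog, Sox2, Zfp42 and Esrrb) summed to between 114 and 131 CPM and between 353 and 475 CPM. At T0 they summed to between 2500 and 2602 CPM in Ctrl.

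Mesoderm genes were also divided, with 8 of 19 higher and 7 lower (background 11.6% and 10.2%). Mixl1 and Eomes, of the primitive streak, rose by 1.85 and 1.13, although Mixl1 was below 3 CPM throughout and was not called without Ctrl replicate 1 (1.61). Tbx20 (0.99) and, on chromosome 11, Hand1 (0.94) also rose. Foxf1 (-1.41), Foxc1 (-1.60), Kdr (-1.83) and Hand2 (-1.87), the paralogue of Hand1, fell. So did Meox1 (-3.78) on chromosome 11, from 25.2, 21.7 and 21 CPM to 1.67, 1.91 and 1.33 CPM. The median of the list was 0.94, and -0.55 when only genes with at least 10 counts in every library were tested. Of 9 fibroblast markers, 5 were lower (background 10.2%), among them Col1a1 (-2.195), Col1a2 (-3.31), Col3a1 (-2.22) and Dcn (-2.61). At T0, Col1a1 (-2.32), Col1a2 (-2.07) and Col3a1 (-2.81) were already lower. The sum over Col1a1, Col1a2, Col3a1, Thy1, Postn, Dcn and Lum was 367 to 514 CPM in the Ctrl libraries and 69.2 to 85.6 CPM in those of dPOLE4 MCM2-2A. Lum was at 0 in all 3 double mutant libraries and at no more than 0.304 CPM in Ctrl, and Thy1 rose (1.54). The part of mesenchymal cells in the fall of the collagens was not tested. Among 12 trophoblast genes, Krt7 and Krt8, both on chromosome 15, rose by 2.31 and 0.71 and Gata3 fell by 1.45. Its count of 5 higher was 2 without Ctrl replicate 2 or without dPOLE4 MCM2-2A replicate 2.

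**Figure D5:**
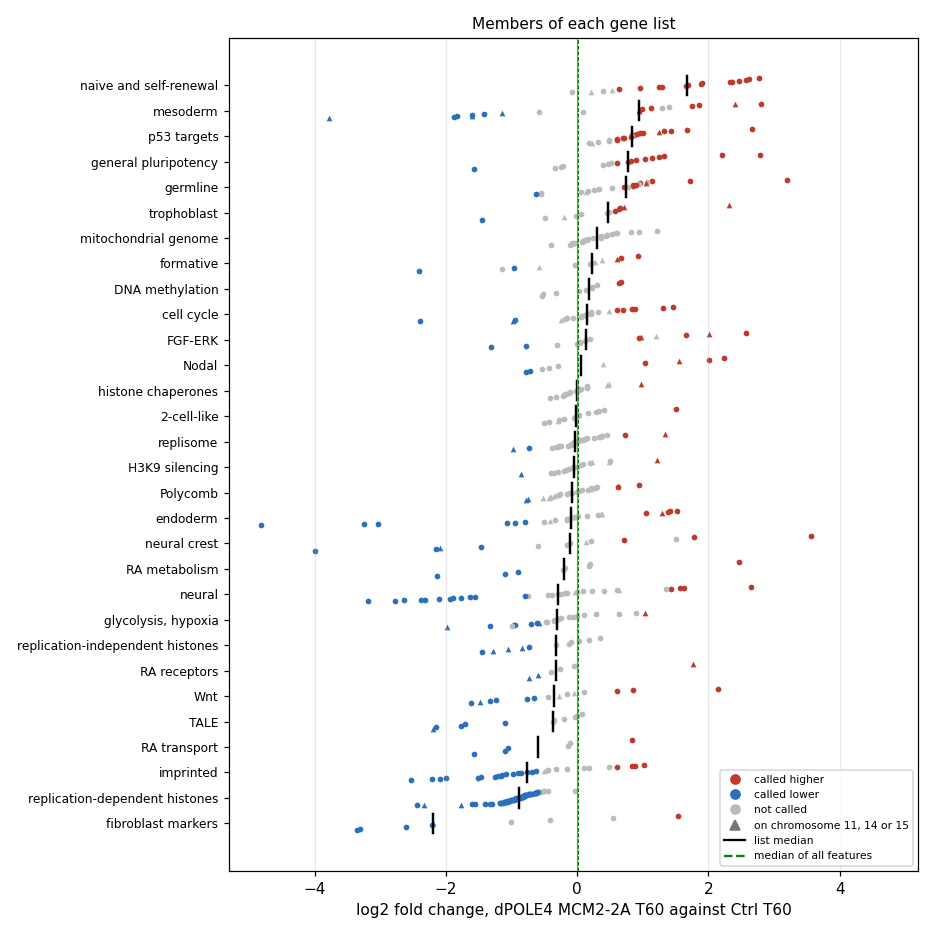
Log2 fold change at T60 of every tested member of each gene list except the Hox clusters, red where called higher, blue where called lower and grey where not called. Triangles mark genes of chromosomes 11, 14 and 15, a black bar marks the list median and a dashed line the median of all features (0.016). The naive genes have the highest median (1.67) and the fibroblast markers the lowest (-2.195), and the 68 replication-dependent histones lie below 0 with a median of -0.89.

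The TGF-beta ligand Nodal was at 12.5, 10.6 and 10.6 CPM in Ctrl and at 49.03, 45.8 and 39.8 CPM in dPOLE4 MCM2-2A (2.01 ± 0.12, adjusted p = 2.82e-08). Its targets and antagonists Lefty2 and Lefty1 rose by 2.24 and 1.04 and Foxh1, a Smad partner whose gene lies on chromosome 15, by 1.55. All 4 were also higher at T0, Nodal by 1.098, Lefty2 by 2.26, Lefty1 by 1.395 and Foxh1 by 0.97. The receptor Acvr2b and the effector Smad3 fell by 0.79 and 0.72. Of 15 FGF and ERK genes, 5 were higher and 2 lower (background 11.6% and 10.2%). Spry4, a feedback inhibitor, rose from 2.49, 2.28 and 2.59 CPM to 16.6, 14.1 and 12.9 CPM (2.58 ± 0.17, adjusted p = 7.66e-08), the effector Etv4 on chromosome 11 by 2.01 and Etv5 by 0.94. The feedback inhibitors Dusp6 (-0.31), Dusp4 (0.14) and Spry1 (0.00) were not called. Etv1 fell by 0.78 but was not called without Ctrl replicate 1 (-0.71) or 2 (-0.68) or without dPOLE4 MCM2-2A replicate 2 (-0.64). The receptor Fgfr2, which comes on in epithelia, fell from 149.9, 154 and 170.0 CPM to 62.4, 63.6 and 62.2 CPM (-1.32 ± 0.08). In the Wnt list 3 of 14 were higher, with the ligand Wnt8a at 2.15, and 6 lower, with the antagonists Sfrp1, Notum and Nkd1 at -1.61, -1.48 and -1.33.

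Of 68 replication-dependent genes tested, 61 were lower and 0 higher, with a median of -0.89, and in 66 the groups did not overlap (background 10.2% lower and, outside the 3 chromosomes, 50% without overlap). These genes are transcribed in S phase, and their mRNAs end in a stem-loop without a poly(A) tail, so that libraries made by rRNA depletion retain them. By family, 6 of 6 H1 genes were lower, 16 of 19 H2a, 15 of 18 H2b, 12 of 12 H3 and 12 of 13 H4. Their share of all counts was 1.16%, 0.980% and 1.03% in Ctrl and 0.627%, 0.597% and 0.552% in the double mutant, or 1.06% ± 0.096 against 0.592% ± 0.0378 (SD, n = 3 each). The linker histone Hist1h1b was at 415, 340.4 and 376 CPM against 152, 145 and 156 CPM (-1.304 ± 0.08, adjusted p = 5.56e-08). Hist1h1e was at 606, 496 and 549.7 CPM against 269, 276 and 241 CPM (-1.05 ± 0.09), and Hist1h4d at 654, 468 and 489 CPM against 308, 307 and 290.3 CPM (-0.81 ± 0.11). At T0, 35 were lower, with a median of -0.61 and shares of 0.813% ± 0.0702 against 0.578% ± 0.0137. Many of these genes are near-identical copies, and reads with several alignments were shared out by the authors' counting, so values of single copies are less sure than the family sums. Of 11 replication-independent histone genes 5 were lower, 3 of them on chromosomes 11 and 15. H1fx fell by 1.45 and H2afy2 by 0.74, while H3f3a (0.18), Cenpa (0.02) and H2afz (-0.09) were not called.

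The Hist1h2bm promoter is shown as an example of the octamer of H2b promoters, a known site of Oct factors. Its RefSeq window is GRCm38.p6 chr13:21721794-21722093 on the plus strand, and capitals mark ATTTGCAT at -25 to -18.
Hist1h2bm: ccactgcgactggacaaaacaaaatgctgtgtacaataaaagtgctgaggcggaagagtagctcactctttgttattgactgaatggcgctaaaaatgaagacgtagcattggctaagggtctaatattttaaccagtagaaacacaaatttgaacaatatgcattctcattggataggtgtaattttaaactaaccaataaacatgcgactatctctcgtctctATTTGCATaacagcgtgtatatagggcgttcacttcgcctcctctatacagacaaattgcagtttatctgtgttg
ATTTGCAT, on either strand, was in 7 of 16 H2b windows (43.8%), in 7 of 45 windows of other replication-dependent histone genes (15.6%) and in 1.97% of all windows. CCAAT was in 16 of 16 and 36 of 45 (80%), against 41.1% of all. Hist1h2bm was at 47.9, 51.2 and 45.8 CPM in Ctrl and at 22.2, 25.04 and 22.6 CPM in dPOLE4 MCM2-2A (-1.04 ± 0.10). H2b genes had a median of -0.78 at T60 and of -0.84 at T0, and the other families medians between -0.87 and -1.03 at T60 and between -0.26 and -0.80 at T0. Genes with and without the octamer were not compared.

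Genes of the replication machinery and histone chaperones had medians near 0. Of 32 replisome genes 2 were higher, 2 lower and the median was -0.03, and of 18 chaperones 1 was higher and 0 lower, with a median of 0.003. Pcna was at 189, 156 and 169 CPM against 168, 162 and 156 CPM (-0.07 ± 0.08), and the mitotic cyclin Ccna2 at 176, 180.1 and 174 CPM against 185, 188 and 234 CPM (0.21 ± 0.09). Neither was called. Wdhd1 and Supt16, which rose by 1.34 and 0.98, lie on chromosome 14, and Pold2, which fell by 0.98, on chromosome 11. Gins3, at 0.73, was the other that rose.

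Targets of p53 respond to DNA damage and other stress. Of 21 tested, 15 were higher and 0 lower (background 11.6% and 10.2%), with a median of 0.83. Trp73, a p53 family member, was at 1.34, 0.913 and 1.06 CPM in Ctrl and at 6.09, 8.67 and 6.65 CPM in dPOLE4 MCM2-2A (2.67 ± 0.24, adjusted p = 1.19e-06). Btg2, an antiproliferative factor, was at 69.4, 58.6 and 72.02 CPM against 170.1, 182 and 181 CPM (1.43 ± 0.09, adjusted p = 3.57e-08), and the cell cycle inhibitor Cdkn1a at 84.1, 81.0 and 85.0 CPM against 143, 146 and 153 CPM (0.84 ± 0.07, adjusted p = 1.08e-06). All 3 genes were separate between the groups. Pmaip1, a death-promoting BH3 protein, rose by 1.67, Perp by 1.32 and Gtse1 on chromosome 15 by 1.24. Bax (0.32), Bbc3 (0.49) and Ccng1 (0.23) were not called. At T0, 9 were higher and 0 lower (background 12.8% and 9.22%), with a median of 0.49.

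Germline genes are silenced by promoter DNA methylation in somatic cells. Of 22 tested, 9 were higher and 1 lower (background 11.6% and 10.2%), with a median of 0.74. The count of lower genes was 0 to 2 when single libraries were left out. Sycp3 was at 0.608, 1.28 and 0.863 CPM in Ctrl and at 7.24, 7.12 and 9.76 CPM in dPOLE4 MCM2-2A (3.20 ± 0.27, adjusted p = 6.29e-07). Sycp1, its partner in the synaptonemal complex, was at 1.58, 1.74 and 2.30 CPM against 5.83, 5.10 and 7.10 CPM (1.73 ± 0.22, adjusted p = 2.86e-05). In both, all double mutant libraries were above all Ctrl ones. Taf7l rose by 1.14, Mov10l1 on chromosome 15 by 1.04, Brdt by 0.95, Ddx4 by 0.86 and Mael by 0.72. Dazl, at 0.26, and Tex19.1, at 0.14, were not called. At T0 the excess was larger by count, with 13 higher and 3 lower (background 12.8% and 9.22%).

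The Sycp3 promoter is printed since many genes of this list carry the E-box CACGTG. In its RefSeq window (GRCm38.p6 chr10:88459337-88459636, plus strand) capitals mark 2 copies, the first at -64 to -59.
Sycp3: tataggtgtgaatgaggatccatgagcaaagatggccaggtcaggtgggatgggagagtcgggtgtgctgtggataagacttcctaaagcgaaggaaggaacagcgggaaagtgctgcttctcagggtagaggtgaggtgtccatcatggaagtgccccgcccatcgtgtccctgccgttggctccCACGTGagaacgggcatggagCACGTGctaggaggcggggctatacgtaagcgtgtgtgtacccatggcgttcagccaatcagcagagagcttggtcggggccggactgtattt
CACGTG, a palindrome, was in the windows of 12 of 21 germline genes (57.1%) and of 8.09% of all 27025 genes. The letters say nothing on what is bound there in these cells.

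Imprinted genes, which are expressed from 1 parental copy under control of DNA methylation, were mostly lower, with 17 of 29 called lower, 4 higher (background 10.2% and 11.6%) and a median of -0.76. At T0, 9 were lower and 4 higher, with a median of -0.42, and Plagl1 (-2.25) and Nnat (-1.29) were already lower and Igf2 (1.16) already higher. H19, a long noncoding RNA of the maternal chromosome 7, was at 10800, 9916 and 12870 CPM in Ctrl and at 2606, 3106 and 2604 CPM in dPOLE4 MCM2-2A (-1.997 ± 0.12, adjusted p = 2.56e-08). Its neighbour Igf2, expressed from the paternal copy, rose from 215, 184 and 194 CPM to 322, 389.9 and 332 CPM (0.83 ± 0.09, adjusted p = 7.29e-06). At T0, H19 had been higher in the double mutant (0.75), with means of 247 and 415 CPM. Peg3 was at 3203, 3559 and 3875 CPM against 1244, 1251 and 1334 CPM (-1.46 ± 0.10), and Usp29 at 44.8, 52.3 and 46.4 CPM against 7.91, 7.39 and 9.21 CPM (-2.53 ± 0.12, adjusted p = 5.18e-09). Nnat (-2.22), Plagl1 (-2.08), Mest (-1.51), Peg10 (-1.21) and the maternal noncoding RNAs Rian (-1.16), Meg3 (-1.08) and Mirg (-0.98) also fell. Thus paternally and maternally expressed genes were both among those that fell. Igf2r, a maternally expressed receptor, rose by 1.02 and Cdkn1c by 0.88. Over the list, CPM summed to 25650 to 28930 in Ctrl libraries and to 9470 to 10370 in double mutant libraries, most of it Peg10, Peg3 and H19.

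Peg3 and Usp29 are transcribed away from each other from 1 imprinted promoter, and both fell. Their RefSeq windows, on the minus and the plus strand, overlap by 263 bases at GRCm38.p6 chr7:6730370-6730632, printed here on the plus strand.
Peg3 and Usp29: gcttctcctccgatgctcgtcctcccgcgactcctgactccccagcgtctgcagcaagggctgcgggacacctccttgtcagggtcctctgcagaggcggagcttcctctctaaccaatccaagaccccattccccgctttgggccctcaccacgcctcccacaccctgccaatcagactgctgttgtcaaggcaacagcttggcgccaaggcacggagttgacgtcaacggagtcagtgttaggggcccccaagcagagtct

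Polycomb genes had 3 of 25 higher, 2 lower and a median of -0.08, where the 2 lower ones, Cbx2 (-0.78) and Pcgf2 (-0.75), are on chromosome 11 and Mtf2, an accessory factor of PRC2, rose from 125, 126 and 126 CPM to 239.7, 224 and 256 CPM (0.95 ± 0.08). Ezh2 was at -0.16 and Suz12, on chromosome 11, at -0.40, neither called. Without Ctrl replicate 2, 4 Polycomb genes were lower. Among 10 DNA methylation genes Dnmt3b (0.66) and Tet2 (0.64) rose, of which Tet2 was at 0.58 and not called without Ctrl replicate 3, where 1 of the list was lower. Dnmt1 was at 416, 404 and 431 CPM against 420.1, 438 and 408 CPM (0.03 ± 0.08). The H3K9 list had 1 of 18 in each direction, Mphosph8 on chromosome 14 and Cbx1 on chromosome 11.

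Repeats held a larger share of counts in the double mutant. They made up 5.94%, 6.10% and 5.85% of counts in Ctrl and 7.62%, 7.56% and 6.91% in dPOLE4 MCM2-2A, or 5.96% ± 0.126 against 7.36% ± 0.396, while at T0 they held 8.41% ± 0.232 and 8.44% ± 0.481. Of 827 subfamilies, 69 were higher (8.34%, against 11.6% of all features) and 8 lower (0.967%, against 10.2%). Their median log2 fold change was 0.37, and 716 of them had a value above 0. LINE subfamilies had a median of 0.40 with 11 of 129 higher and 0 lower, and LTR subfamilies 0.35 with 49 of 462 higher and 8 lower. The remaining subfamilies had a similar median of 0.36, with 9 of 236 higher and 0 lower. Mean shares of counts in Ctrl and the double mutant were 0.623% and 0.936% for LINE and 1.43% and 1.74% for LTR. For the remaining repeats they were 3.92% and 4.69%, so the shift was not particular to LINE and LTR. RLTR45-int, the internal part of an endogenous retrovirus, rose most, from 23.7, 23.3 and 20.5 CPM to 126, 98.1 and 141 CPM (2.45 ± 0.13, adjusted p = 1.06e-08). Its level at T0 was higher still in both lines, at means of 187 and 124 CPM. MER89 rose by 2.19. MLT2B5 (2.30), Charlie10a (2.23) and RMER16A3 (2.01) were below 1.4 CPM in every library. All 3 lost the call without Ctrl replicate 1 (1.69, 2.59 and 2.37) and without Ctrl replicate 2 (2.00, 1.97 and 1.75). MLT2B5 also did without dPOLE4 MCM2-2A replicate 1 (2.09). Charlie10a did without Ctrl replicate 3 (2.25) and dPOLE4 MCM2-2A replicate 3 (1.87). RMER16A3 did without Ctrl replicate 3 (2.03) and dPOLE4 MCM2-2A replicates 1 and 2 (1.72 and 2.11). Of the abundant young LINE-1 subfamilies, named after their values were seen, L1Md_T was at 836, 937 and 907 CPM against 1571, 1732 and 2104 CPM (1.03 ± 0.11, adjusted p = 4.92e-06) and L1Md_A at 714, 719.7 and 688 CPM against 1349, 1398 and 1549 CPM (1.03 ± 0.09, adjusted p = 5.24e-07).

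Of 21 subfamilies with IAP in their name, 1 was higher, IAPLTR3-int (1.38), and 4 were lower, all of the IAPEY group, with a median of -0.17. IAPEY4_I-int was at 84.7, 105 and 76.9 CPM against 21.9, 23.8 and 28.2 CPM (-1.84 ± 0.13, adjusted p = 1.32e-07), IAPEY4_LTR fell by 1.61, IAPEy-int by 1.56 and IAPEY_LTR by 1.26. The IAPEy-int difference was -2.09 at T0. Copies of the IAPEY group lie on chromosome Y as well as elsewhere, and the genes of Y were lower too (median -3.56). The part of chromosome Y in these values was not tested. The remaining 2 of the 5 largest falls were LTR78 (-1.76) and ERVB4_1-I_MM-int (-1.30). The 2-cell-like list had 1 of 14 higher, Gm8300 (1.504), and a median of -0.01. At T0, 7 had been higher, with a median of 1.43. MERVL-int, the retrovirus of that state, was at 5380, 4798 and 4469 CPM against 4996, 4686 and 4917 CPM at T60 (0.01 ± 0.09).

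Glycolysis and hypoxia genes had 7 of 25 lower, 1 higher (background 10.2% and 11.6%) and a median of -0.31. Outside the chromosomes kept apart, 5 of 21 were lower and 0 higher (background 8.29% and 10.6%). The glucose transporter Slc2a1 was at 1022, 780 and 769.9 CPM in Ctrl and at 447, 485 and 384 CPM in dPOLE4 MCM2-2A (-0.95 ± 0.12, adjusted p = 1.8e-05), and the hypoxia-induced mitophagy receptor Bnip3 fell by 1.33 and the triosephosphate isomerase Tpi1 by 0.70. Without Ctrl replicate 1, which was the highest library for Slc2a1, 4 of the whole list were lower and 2 higher. The gene Aldoa has 2 identifiers in this list. Of 23 cell cycle genes 6 were higher, with Gas6 at 1.46 and Ccnd1, a cyclin of the G1 phase, at 1.32, and 14 were not called. The 3 lower ones were Gas1 (-2.39), the largest change of the list, Pold2 on chromosome 11 (-0.98) and Pcbp4 (-0.95). Cdkn1a and Mdm2, among the higher ones, are also in the p53 list. None of 24 genes of the mitochondrial genome was called (0 at the adjusted p used and 1 higher by DESeq2), and replicate 3 of the double mutant was far above the others. Without it, 3 were lower.

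The response of Ctrl cells to RA gives classes of genes that use no library of this comparison. Genes were classed by the change from T0 to T24 in Ctrl alone. Outside chromosomes 11, 14 and 15, RA had lowered 1231 genes, of which 1008 passed the filter on low counts at T60. A gene low in Ctrl can pass it through the double mutant libraries alone, so the tested genes can lean toward higher values. Of the 1008, 304 were higher at T60 in the double mutant (30.2%, against 10.6% of all genes there). Lower were 73 (7.24%, against 8.29%), and the median was 0.34. Of 2049 that RA had raised, 1978 passed, and of these 359 were lower (18.1%) and 301 higher (15.2%), with a median of -0.08. Among the genes that passed, those that go down with RA were more often called higher in the double mutant. Those that go up with RA were more often called in both directions.

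At T0, 2785 of 14333 genes outside chromosomes 11, 14 and 15 differed between the lines (19.4%). Among the 1545 genes higher at T60, 662 were also higher at T0 and 831 were tested and not called there or not tested. For the 1206 lower at T60, 367 were lower at T0. Opposite calls at T0 and T60 were made for 101 genes. The change of the difference between T0 and T60 was called for 769 of 15757 genes outside these chromosomes toward higher values in the double mutant (4.88%) and for 954 toward lower ones (6.05%). Constant dosage differences between the lines cancel in this test. Its largest positive value was that of T (brachyury), the factor of the primitive streak, with a change of 6.06. In Ctrl, T was at a mean of 36.5 CPM at T0 and 0.400 CPM at T60, and in dPOLE4 MCM2-2A at 1.25 and 0.974 CPM. The change of T thus came from a difference at T0. Nr2f1, an RA-induced nuclear receptor of neural cells, gave -5.31, and its T0 means were 0.0190 and 0.114 CPM, and it was at 33.0, 27.1 and 25.4 CPM against 5.00, 3.56 and 3.39 CPM at T60.

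The single perturbations at T60 were measured in the same experiment, and their comparisons share libraries with this one, so only values are given side by side. Against Ctrl, 3051 of 18056 features were called with MCM2-2A alone (16.9%) and 33 of 17116 with dPOLE4 alone (0.193%). Between dPOLE4 MCM2-2A and Ctrl MCM2-2A, 416 of 18473 were called (2.25%). Mean Nanog was 19.7 CPM in Ctrl, 25.3 in dPOLE4, 79.3 in Ctrl MCM2-2A and 108 in dPOLE4 MCM2-2A. For Pou5f1 the means were 30.3, 35.1, 98.8 and 154 CPM, and the step from Ctrl MCM2-2A to the double mutant was 0.64 ± 0.12 (adjusted p = 0.00666). Meis2 went from 203 to 170.0, 88.8 and 45.1 CPM, with a last step of -0.97 ± 0.09 (adjusted p = 0.000489), and Pax6 from 22.5 to 13.8, 4.47 and 2.42 CPM (last step -0.88 ± 0.17, adjusted p = 0.0099). H19 followed MCM2-2A, at 11200, 11590, 2188 and 2772 CPM. Summed over the replication-dependent histones, the means were 10510, 9035, 7002 and 5549 CPM.

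A departure of the double mutant from the sum of both single perturbations on the log2 scale was called for 19 of 18982 features (0.1%), 6 positive and 13 negative. Shisa3 had means of 48.7, 42.8, 7.13 and 1.79 CPM in Ctrl, dPOLE4, Ctrl MCM2-2A and dPOLE4 MCM2-2A, and an interaction of -1.80 (adjusted p = 0.00474). Col1a2 had 154, 108, 50.8 and 15.4 CPM and -1.20 (adjusted p = 0.00474). Ecm1, a matrix protein, had 128, 142, 70.2 and 40.9 CPM and -0.93 (adjusted p = 0.00225). In each of these genes the change with dPOLE4 was more negative in the MCM2-2A background. Igf2 (0.74), Mylpf (1.11), Plekhg1 (0.91) and Usp17la (1.24) were positive. The number of calls rests on single libraries. It was 11, 10 and 1 without Ctrl replicates 1, 2 and 3, 6, 6 and 2 without those of dPOLE4, 12 and 1 without replicates 2 and 3 of Ctrl MCM2-2A, and 5 and 38 without replicates 2 and 3 of dPOLE4 MCM2-2A.

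On chromosomes 11, 14 and 15 the largest changes exceeded the chromosome-wide shifts. Ltb4r2, a leukotriene receptor on chromosome 14, was at 0.730, 0.639 and 0.480 CPM in Ctrl and at 11.6, 14.8 and 12.01 CPM in dPOLE4 MCM2-2A (4.34 ± 0.23, adjusted p = 1.3e-08). Tgm1, a transglutaminase of the same chromosome, was at 11.9, 11.5 and 11.99 CPM against 105, 132 and 111 CPM (3.31 ± 0.11), and Myh13, a muscle myosin, rose by 3.74 on chromosome 11. Pitpnm3, on chromosome 11, fell by 3.01. Ednrb, the endothelin receptor of neural crest, fell by 2.75 on chromosome 14, from 11.5, 13.2 and 11.99 CPM to 1.72, 1.81 and 1.83 CPM. Myh13 and Ednrb thus moved against the median of their chromosome.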

How the data were processed

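The authors trimmed reads with cutadapt 4.2, aligned them with STAR to mm10 keeping multiple alignments, counted them with TEcount on GENCODE M25 genes and repeats, and deposited the raw counts of all libraries in a table. Symbols and positions came from GENCODE M21, which held 55227 of 55487 genes, and promoters from RefSeq. The 2 groups were filtered with filterByExpr (minimum count 10, total 15), scaled by TMM factors from both genes and repeats, and tested in R 4.3.3 with edgeR 4.0.16 (quasi-likelihood test, Benjamini-Hochberg adjustment). The study's methods name DESeq2, used here as an alternative (1.42.0). The procedure was checked on data made with known changes. Interactions were fitted on 4 groups. P-values measure the spread between replicates, of which each group has 3. Members and gene lists were chosen with earlier results of these data known, so list counts and medians carry no test. Named genes are the 12 largest calls in each direction outside chromosomes 11, 14 and 15 (at least 5 CPM, protein-coding, no overlap), 3 on them, 5 repeats, 6 for each interaction, up to 5 per list and direction, Pole4, Mcm2 and genes the study names. Other genes named were chosen after their values were seen, and some genes are not reported here. Pairing was checked by correlating deviations from group means. Libraries with the same number gave r of 0.12, -0.10 and -0.01. With 3 libraries per group these values cannot decide whether the numbers pair samples. The main fits took the libraries as unpaired. Left out in turn were each library, the filter and the fold limit. The scaling was exchanged for DESeq2 size factors or for TMM factors from genes only.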

Additional observations from a re-analysis of the deposited data

Results flagged for a closer look

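Results were looked at again where the difference between the lines itself changed with time or with the other perturbation, each tested as an interaction with edgeR. Groups of 3 are too small for a check on single far-off libraries. No explanation was weighed.

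The difference between dPOLE4 MCM2-2A and Ctrl changed between T0 and T60 for 2136 features. Upward changes of the difference were 6.06 for T, 4.90 for Sp5, 4.50 for Slc39a8, 4.05 for Epp13 and 3.98 for Gbp2b. Of these, T, Sp5, Slc39a8 and Gbp2b were lower in the double mutant at T0 and not called at T60. The difference moved downward for Ttr (-6.77), Nr2f1 (-5.31), Grifin (-4.98), Duox2 (-4.72), Shisa3 (-4.48) and Tnni2 (-4.39). For Ttr, Nr2f1, Grifin and Duox2 the means at T0 were below 1 CPM in both lines, so the sizes rest on low counts. For naive genes the difference changed by 3.58 (Pramel7), 3.18 (Pramel6), 2.97 (Nr0b1), 2.92 (Tcl1), 2.55 (Dppa3), 2.54 (Esrrb) and 2.50 (Nanog). Further naive values were 2.31 (Nr5a2), 2.199 (Pou5f1), 2.15 (Tfcp2l1), 1.25 (Prdm14), 1.24 (Klf2), 1.12 (Zfp42) and 0.83 (Klf4). The difference changed by 1.82 for Lef1, 1.62 for Krt18 and 1.11 for Cyp26a1.

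The effect of dPOLE4 at T60 differed between the MCM2-2A and the other background for 19 features. Positive values were 1.24 for Usp17la, 1.11 for Mylpf, 0.91 for Plekhg1 and 0.74 for Igf2. Negative values were -1.80 for Shisa3, -1.20 for Col1a2, -1.20 for Ripply3, -0.93 for Ecm1 and -0.89 for Cyp26b1.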

How the results depend on the processing

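The calls of dPOLE4 MCM2-2A against Ctrl numbered 3929, and 2751 outside chromosomes 11, 14 and 15. With glmTreat against 1.5-fold they were 1698 and 1205, and with features DE at T0 left out 2124 and 1621. The change from T0 to T60 had 2136 calls, and 683 with glmTreat. The interaction had 19, where 1922 features had an unadjusted p under 0.05 in the same quasi-likelihood F test against 0. It had 90 with DESeq2, 193 without a filter, 0 with glmTreat and from 1 to 38 when each library was left out. With the replicate block, which takes libraries of the same number as paired, the counts were larger, at 4022, 2809, 2371 and 45. Leaving out chromosome Y gave 2744 outside calls, and thinning all libraries to 1 depth 3615 and 2506, both chosen after seeing the data. Of values for 241 named features, 2768 kept direction and call, 73 lost the call, 1 gained it and 15 turned in sign. The last were uncalled genes near 0. Sox3 gave 0.007 with DESeq2, 0.015 with factors from genes only, 0.013 without a filter, 0.032 with at least 10 counts in every library, 0.034 with the replicate block and from -0.23 to 0.32 when each library was left out. Lef1 gave 0.007 with at least 10 counts and from -0.16 to 0.14. Ranges were -0.012 to 0.37 for Sp5, -0.29 to 0.071 for Gbp2b and -0.24 to 0.10 for Sox2. Causes were not tested. Counts below about 10 per library limit the Hox, repeat and streak genes named.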
